A study of Mus musculus with 24 samples.

Results

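Collagens are the triple-helical proteins of the extracellular matrix. Each collagen molecule is wound from 3 chains, alike or different, and each kind of chain is encoded by its own gene. The chains described here are all rows of the count table whose gene name is Col, a number, a and a number: 44 of 55401 rows. Of these 44 chains, 43 had counts in at least 1 library and 41 passed a filter on low counts, among 17144 genes that did. They were measured by RNA-seq of polyadenylated RNA in CJ9 mouse embryonic stem cells, either wild-type or from a Setd3 knock-out line made with CRISPR-Cas9, at days 0, 2, 3 and 4 of differentiation towards definitive endoderm, with 3 libraries in each of 8 groups. SETD3 is an enzyme that methylates a histidine of actin, and the study asked what it does in endoderm differentiation. All cells had been kept with LIF on mitotically inactivated mouse embryonic fibroblasts (feeders). They were then separated from the feeders and grown in serum-free endoderm medium for 2 days, and after day 2 in the same medium with Activin A, a TGF-beta family ligand used to induce endoderm. The knock-out was a single line, so a difference between genotypes is a difference between 2 lines. The labels do not say that replicates came from separate cultures, and p-values then measure the spread between these libraries, which may be technical.

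The chains fall into structural classes. Fibrillar chains form the striped fibrils of connective tissue: types I, III and V are made by fibroblasts, and types II, XI and XXVII are best known from cartilage. Network chains include the 6 type IV chains, which form the sheet of basement membranes, and type VIII. FACIT chains (types IX, XII, XIV and XVI among them) sit on the surface of fibrils, type VI forms beaded filaments around cells, type VII forms the anchoring fibrils of skin, multiplexins (types XV and XVIII) lie in basement membranes, and types XIII, XVII, XXIII and XXV are anchored in the cell membrane. In the early embryo the extraembryonic endoderm is known as a maker of basement membrane, whereas fibrillar types I and III mark fibroblasts.

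Promoter windows of 300 bases, 250 before and 50 after the start of a RefSeq transcript on GRCm38.p6, the build of the counts, were found for 35 of the 44 chains, as 38 windows. The first pair is shown because Col4a1 (ENSMUSG00000031502, chr8:11198423-11312826, minus strand) and Col4a2 (ENSMUSG00000031503, chr8:11312805-11449287, plus strand) start head to head and rose together at day 4. Their windows, at chr8:11312777-11313076 on the minus strand and chr8:11312555-11312854 on the plus strand, share 78 bases, which are in capitals and read as reverse complements of each other. The annotated exons of both genes overlap by 22 bases there, which is 0.295% of the exon bases of Col4a1.
Col4a1: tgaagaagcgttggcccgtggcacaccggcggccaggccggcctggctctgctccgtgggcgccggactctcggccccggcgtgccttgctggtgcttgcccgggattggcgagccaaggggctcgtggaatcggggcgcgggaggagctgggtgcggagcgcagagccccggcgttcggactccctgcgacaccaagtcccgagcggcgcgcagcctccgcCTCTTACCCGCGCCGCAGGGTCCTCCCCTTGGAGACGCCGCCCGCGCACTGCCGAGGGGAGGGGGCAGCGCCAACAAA
Col4a2: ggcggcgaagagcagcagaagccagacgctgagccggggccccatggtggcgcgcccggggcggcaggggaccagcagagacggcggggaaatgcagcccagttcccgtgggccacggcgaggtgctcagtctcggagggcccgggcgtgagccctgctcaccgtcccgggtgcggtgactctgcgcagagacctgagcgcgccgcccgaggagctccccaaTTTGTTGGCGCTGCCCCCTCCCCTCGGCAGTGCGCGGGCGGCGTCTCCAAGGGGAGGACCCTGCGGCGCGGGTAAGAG

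The next windows are shown for fibrillar chains that fell together after day 0, Col1a2 (chr6:4505368-4505667, plus strand) and Col3a1 (chr1:45311288-45311587, plus strand). A window of Col23a1 (chr11:51289670-51289969, plus strand) is given for the chain with the largest fold difference between genotypes at day 4 among the chains of at least 10 CPM. Capitals mark the TATA box letters TATAAA, the CCAAT box letters CCAAT and the GC box letters GGGCGG on either strand, which do not overlap in these windows.
Col1a2: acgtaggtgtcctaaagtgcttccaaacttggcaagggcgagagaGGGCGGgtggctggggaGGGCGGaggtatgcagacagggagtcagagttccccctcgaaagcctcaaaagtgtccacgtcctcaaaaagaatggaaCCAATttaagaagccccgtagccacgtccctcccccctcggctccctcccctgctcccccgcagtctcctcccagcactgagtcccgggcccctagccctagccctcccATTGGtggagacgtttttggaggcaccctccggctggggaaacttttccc
Col3a1: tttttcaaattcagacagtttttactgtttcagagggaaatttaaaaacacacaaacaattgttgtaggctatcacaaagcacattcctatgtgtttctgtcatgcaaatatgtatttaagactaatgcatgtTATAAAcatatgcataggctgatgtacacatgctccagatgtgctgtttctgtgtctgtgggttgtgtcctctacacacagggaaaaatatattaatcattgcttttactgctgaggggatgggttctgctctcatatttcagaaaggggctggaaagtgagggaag
Col23a1: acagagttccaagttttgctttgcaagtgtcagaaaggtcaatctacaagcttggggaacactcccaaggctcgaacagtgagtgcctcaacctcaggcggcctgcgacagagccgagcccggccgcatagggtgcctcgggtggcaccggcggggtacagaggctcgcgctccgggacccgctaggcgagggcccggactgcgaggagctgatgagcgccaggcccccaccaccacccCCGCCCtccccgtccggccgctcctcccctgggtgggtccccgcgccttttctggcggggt
Among 32851 promoter windows of all genes, 13.6% held TATAAA, 37.4% held CCAAT and 35.7% held GGGCGG. Of the 38 collagen windows, 5, 13 and 23 did. Col3a1 held a TATAAA at base -117 and neither other motif, Col1a2 held 2 CCAAT and 2 GGGCGG, and Col23a1 held 1 GGGCGG. Another head-to-head pair, Col4a6 and Col4a5 on the X chromosome, has start sites 1343 bases apart at 141474076 and 141475419, and their windows do not overlap. Col4a4 and Col4a3 on chromosome 1 also start head to head, at 82586849 on the minus strand and 82586921 on the plus strand. Matches are letters in a window, not shown sites.

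Library totals ran from 18531390 to 24244958 counts. Levels are in CPM, with TMM factors applied to the library totals. A difference is called where edgeR's quasi-likelihood test gave a Benjamini-Hochberg adjusted p under 0.05 over all 17144 genes, and errors of fold changes are standard errors (SE). Setd3 itself was at 97.5 to 124 CPM in the wild-type group means and at 29.9 to 46.3 CPM in the knock-out, with no overlap between libraries at any day. The stem cell label was checked against 6 markers: 5 summed to about 2491 to 2698 CPM in the day 0 libraries, and Sox2 was listed at 0 in every library. All exon bases of Sox2 lie within the annotated span of Sox2ot, and neither labels nor files say how reads in overlapping genes were counted, so this 0 may not be absence of RNA. The 6 definitive endoderm markers summed to 824 to 1058 CPM in wild-type and to 47.6 to 104 CPM in knock-out libraries at day 4.

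The plot of all tested chains by library shows 3 patterns. Some fibrillar, type VI and FACIT chains and Col8a1 were high at day 0. A small group rose in wild-type cells at day 4, and Col18a1 stayed high in knock-out cells. The highest group mean lay at day 0 for 27 of the 41 tested chains in each genotype. It lay at day 4 for 11 chains in wild-type and for 6 in knock-out cells.

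**Figure D1:**
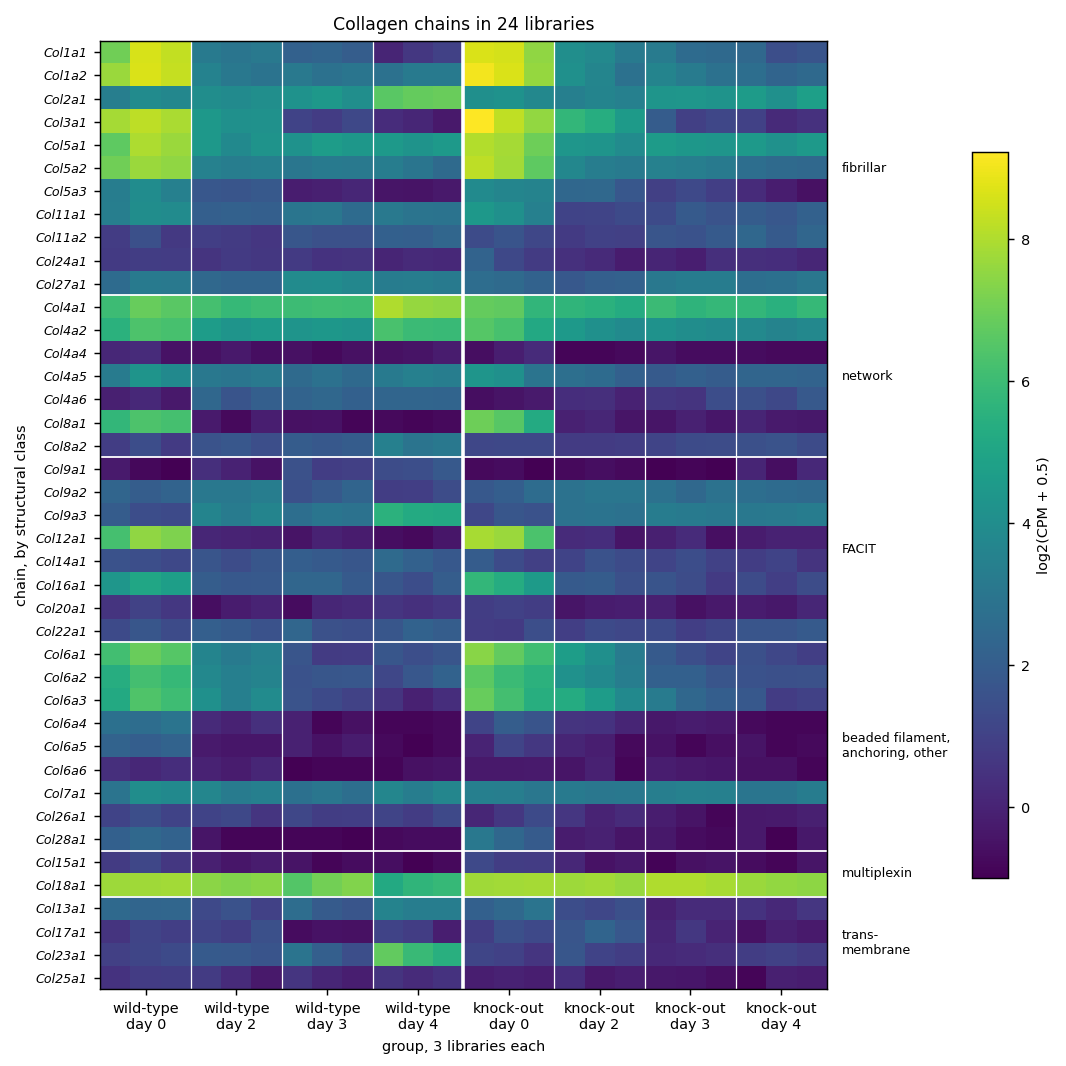
Each row is 1 of the 41 tested collagen chains, ordered by structural class, and each column 1 of the 24 libraries; colour gives log2(CPM + 0.5). The day 0 columns of both genotypes are bright for Col1a1, Col1a2, Col3a1, Col5a1, Col5a2, Col6a1, Col6a2, Col6a3, Col8a1 and Col12a1. The wild-type day 4 columns are bright for Col4a1, Col4a2, Col2a1, Col9a3 and Col23a1.

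At day 0 the most abundant chains per exon length were those of fibroblast matrix together with Col18a1. In wild-type libraries Col1a1, the alpha-1 chain of type I, stood at 42.2 ± 20.3 CPM per kb (SD, n = 3), Col18a1 at 31.1 ± 1.18, Col3a1 at 26.1 ± 3.42, Col1a2 at 25.0 ± 7.77, Col5a1 at 21.9 ± 8.86 and Col6a1 at 21.3 ± 5.63. Among these neighbours in the order only Col18a1 and Col3a1 lay further apart than the larger of their SDs. In CPM, Col1a1 was at 129, 387 and 314 in the wild-type libraries and at 406, 381 and 185 in the knock-out libraries. Col1a2, the alpha-2 chain of the same molecule, was at 207, 398 and 326 in wild-type and at 525, 407 and 195 in knock-out. Wild-type replicate 1 and knock-out replicate 3 were the low libraries for both chains, and the genotypes overlapped.

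Col3a1, the chain of type III fibrils, was at 229, 293 and 245 CPM in wild-type and 601, 301 and 192 CPM in knock-out libraries. The genotypes overlapped. Knock-out replicate 1 was highest for 14 of the 19 chains with a day 0 group mean of at least 10 CPM. That library also had the highest sum of 15 fibroblast markers that are not collagens (Thy1, Dcn, Lum, Postn, Fbln2 and others), 1348 CPM. Fbln2 was the largest part of the sum, with a day 0 mean of 466 of 856 CPM in wild-type and 554 of 997 CPM in knock-out cells. In the wild-type libraries Thy1 had the order of the sum, and Dcn, Lum and Postn did not. In the knock-out libraries all of these had it. The sums of the other 5 day 0 libraries were 1102, 1047, 921, 599 and 543 CPM, and the lowest was again knock-out replicate 3. Of these 15 markers 1, Ogn, which lies within the span of Cenpp, was listed at 0 in every library with the same doubt, and the other 14 had counts in each day 0 library.

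Several chains kept a near constant ratio to the fibroblast sum, of which Fbln2 was the largest part, over the 6 day 0 libraries. Col1a2 was 0.345 to 0.389 times the sum, so that its ratio varied 1.13-fold while its level varied 2.70-fold. Col5a2, a type V chain that joins type I fibrils, had a ratio that varied 1.13-fold against 2.81-fold for its level. The ratios of Col4a2 and Col4a1 varied 1.25-fold and 1.29-fold, and those of Col3a1 and Col1a1 1.68-fold and 1.71-fold. Col18a1 behaved differently: its level varied only 1.09-fold, from 210 to 228 CPM, and its ratio 2.60-fold. These are descriptions of 6 libraries that share depth and preparation, and the part of carried-over fibroblasts in any chain was not tested.

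**Figure D2:**
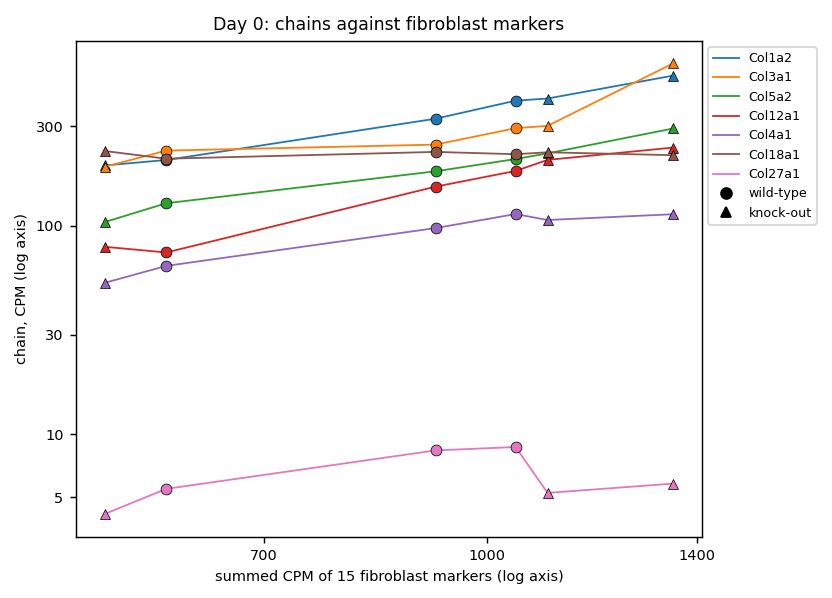
Each point is 1 day 0 library (circles, wild-type; triangles, knock-out), with the summed CPM of 15 fibroblast markers on the x axis and the CPM of a chain on the y axis, both logarithmic; lines join the libraries of 1 chain. Col1a2 and Col5a2 rise with the marker sum over all libraries, Col12a1 and Col4a1 do so over most, and Col18a1 stays between 210 and 228 CPM.

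None of the 14 chains that fell below 40% of their day 0 level by day 2 in both genotypes, a set chosen from the values of these days, was called between genotypes at day 0: the log2 fold change of knock-out against wild-type was 0.23 ± 0.33 (SE) for Col1a1, 0.28 ± 0.31 for Col1a2 and 0.51 ± 0.31 for Col3a1, with edgeR adjusted p of 0.688, 0.583 and 0.281. With the fibroblast sum as covariate Col4a2, at 0.01 ± 0.26 without it, was called lower by -0.23 ± 0.07 (adjusted p = 0.0302) and Col16a1 higher by 0.36 (adjusted p = 0.0191). Without knock-out replicate 3, the library with the lowest fibroblast sum, 6 of the 14 were called higher: Col3a1, Col5a2, Col8a1, Col11a1, Col12a1 and Col16a1, by 0.53 to 0.83 on the log2 scale. The share of all genes called in that fit was not taken, so nothing is read from this count. Of the 14 only Col16a1 had an unadjusted p under 0.05 by edgeR, and DESeq2's Wald test called none. Across all chains 5 of 41 were called at day 0, 1 higher and 4 lower, beside 21.1% of all genes tested (10.6% higher and 10.5% lower). Higher was Col24a1, and lower were Col27a1, Col6a4, Col6a5 and Col25a1. Col6a4, a type VI chain, was at 6.42, 5.82 and 7.24 CPM in wild-type and 1.63, 3.57 and 2.62 CPM in knock-out libraries (-1.31 ± 0.26, edgeR adjusted p = 0.000743), without overlap. Col24a1 was highest in knock-out replicate 1, at 4.33 CPM, against 1.85 and 1.23 CPM in the other knock-out libraries and 1.18 to 1.33 CPM in wild-type. Of the 5 only Col27a1, a fibrillar chain of cartilage, reached 10 CPM in any group. It was at 5.47, 8.69 and 8.37 CPM in wild-type and at 5.80, 5.23 and 4.15 CPM in knock-out libraries, a log2 fold change of -0.57 ± 0.16 with overlapping libraries (edgeR adjusted p = 0.0132). The call on Col27a1 was lost without wild-type replicate 2 or 3 or knock-out replicate 3 (adjusted p 0.0814, 0.0639 and 0.0684) and with only the groups compared (0.125). The count of 5 became 2 without wild-type replicate 3, 3 without knock-out replicate 1 and 12 without knock-out replicate 3. The shares of all genes called in these fits were not taken either.

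From day 0 to day 2 more collagen chains fell than rose. The labels do not say whether day 0 RNA was taken before or after the cells were separated from the feeders, so the day 0 levels may include feeder RNA. In wild-type cells 24 of 41 chains fell and 5 rose, beside 63.8% of all genes called (32.0% higher and 31.8% lower). In knock-out cells 28 fell and 4 rose, beside 60.1% called (29.5% higher and 30.6% lower). The median log2 fold change of the tested chains was -1.17 in wild-type and -1.56 in knock-out, against 0.01 and -0.01 over all genes. In both genotypes 23 chains fell, and 3 rose, Col4a6, Col9a2 and Col9a3. In bulk RNA, fewer cells of a type and less RNA per cell cannot be told apart.

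The deepest falls were in Col12a1 and Col8a1. Col12a1, a FACIT chain of fibroblast matrix, went from 74.4, 183 and 154 CPM to 0.576, 0.527 and 0.466 CPM in wild-type libraries, a log2 fold change of -8.02 ± 0.55 (edgeR adjusted p = 9.36e-10). Col8a1, a short network chain, went from 53.5, 83.6 and 73.7 to 0.336, 0.105 and 0.415 CPM, or -7.90 ± 0.50 (adjusted p = 1.54e-10). No library of day 2 came near one of day 0 for either chain. In knock-out cells the log2 fold changes were -8.24 ± 0.54 and -7.67 ± 0.47.

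Fibrillar chains fell less far. Of the 11 fibrillar chains 8 fell and none rose in wild-type cells. Col1a1 went from a mean of 277 to 8.83, 7.27 and 8.39 CPM in wild-type libraries, a log2 fold change of -5.08 ± 0.43 (edgeR adjusted p = 1.60e-08), and to a mean of 12.6 CPM in knock-out cells. Col5a2 fell by 4.09 ± 0.32 on the log2 scale to 10.2 CPM. Col3a1 fell by 3.77 ± 0.37 to 18.7 ± 2.27 CPM (SD, n = 3), and by a further 3.57 ± 0.55 to 1.56 CPM at day 3. Col5a1, the other main type V chain, fell by 3.36 ± 0.32 and then stayed level, at 18.1, 21.2 and 21.3 CPM at days 2, 3 and 4 in wild-type cells and at 18.1, 21.4 and 20.5 CPM in knock-out cells.

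As shares of the day 0 mean, the values left at day 2 in wild-type cells were 0.381% for Col12a1, 0.406% for Col8a1, 2.81% for Col1a2, 2.95% for Col1a1 and 5.88% for Col5a2. The fibroblast sum itself was left at 7.52% in wild-type and 7.32% in knock-out cells, and all 14 tested fibroblast markers fell in wild-type cells. These markers did not fall alike: in wild-type cells Thy1 went from 52.6 to 27.8 CPM and Fbln2 from 466 to 8.26 CPM. Thy1 was thus a large part of the wild-type day 2 sum of 64.4 CPM, and the share left by the sum depends on it. The 5 chains from Col12a1 to Col5a2 fell below the share of the sum in both genotypes. Col5a1 (9.76%), Col6a1 (11.3%), Col16a1 (12.1%), Col6a2 (20.4%), Col6a3 (22.3%), Col5a3 (25.0%), Col11a1 (28.5%) and Col4a2 (32.8%) were left at more, and Col3a1 at 7.31% in wild-type and 10.8% in knock-out cells. At the other end Col4a5, Col4a1, Col18a1, Col7a1 and Col2a1 were left at 56.5% to 125% in wild-type cells. The split at 40% was set from these values and puts 14 chains below it in both genotypes and 5 chains at or above it in at least 1 genotype: the nearest chains were Col4a2 inside, and Col4a5, at 35.1% in knock-out cells, outside. The 14 were not alike at day 0: Col5a3 varied 1.57-fold in level and 1.94-fold in its ratio to the fibroblast sum.

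**Figure D3:**
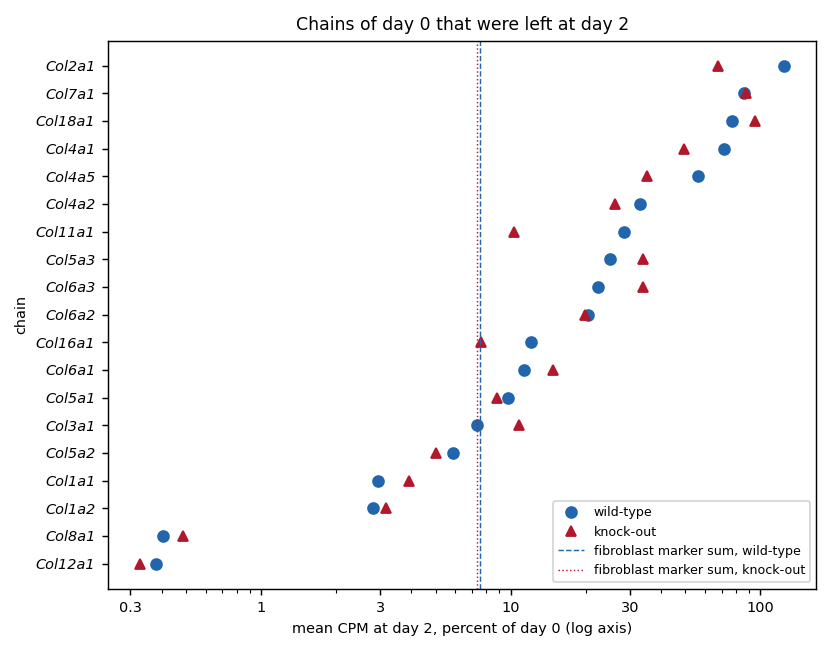
For the 19 chains with at least 10 CPM in a day 0 group mean, points give the mean CPM at day 2 as percent of day 0 on a log axis (circles, wild-type; triangles, knock-out); vertical lines give the same share for the fibroblast marker sum, 7.52% and 7.32%. Col12a1 and Col8a1 lie below 1%, and Col18a1, Col7a1 and Col2a1 above 60% in both genotypes.

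The 3 type VI chains that assemble with one another were parallel. Col6a1 fell by 3.14 ± 0.37 on the log2 scale in wild-type cells from day 0 to 2 and by 2.59 ± 0.51 from day 2 to 3. Col6a2 fell by 2.29 ± 0.28 and 2.07 ± 0.34, and Col6a3 by 2.16 ± 0.43 and 2.79 ± 0.57. In the knock-out they fell in both steps too, from 116, 69.7 and 76.3 CPM at day 0 to 2.37, 3.49 and 5.83 CPM at day 3. The fall of Col6a3 from day 0 to 2 in the knock-out, -1.56 ± 0.41, was not called with only the groups compared (edgeR adjusted p = 0.0672). The other type VI chains, Col6a4 and Col6a5, started at 6.49 and 4.07 CPM in wild-type cells, and Col6a6 never exceeded 0.726 CPM.

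Type I chains parted after day 2. Col1a1 was at 0.541, 1.07 and 1.46 CPM in wild-type and at 4.95, 2.29 and 2.63 CPM in knock-out libraries at day 4, which do not overlap, but the log2 fold change of 1.67 ± 0.81 was not called (edgeR adjusted p = 0.0912). It was called with only the groups compared (adjusted p = 0.00494) and with DESeq2's Wald test (adjusted p = 0.000704). Col1a2 was at 6.64, 8.52 and 8.87 CPM in wild-type and at 5.90, 4.38 and 5.21 CPM in knock-out libraries. It was not called in the fit of all groups, and was called lower with only the groups compared (-0.63, edgeR adjusted p = 0.00742). Per exon length, the wild-type means at day 4 were 0.156 CPM per kb for Col1a1 and 0.645 for Col1a2, the reverse of the order at day 0. The knock-out means kept that order, at 0.501 ± 0.221 for Col1a1 and 0.415 ± 0.0612 for Col1a2 (SD, n = 3).

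From day 2 to 3, the first day in Activin A, 5 chains rose and 12 fell in wild-type cells, beside 42.4% of genes called (21.4% higher and 21.1% lower). Col27a1 rose from 4.56 to 14.8, 15.2 and 12.9 CPM, a log2 fold change of 1.65 ± 0.16 (edgeR adjusted p = 1.37e-08), its highest level of the course. In the knock-out it rose by 1.29 ± 0.17, to 8.13, 9.25 and 9.30 CPM, all below the wild-type libraries. Col11a1, a type XI chain, rose by 0.83 ± 0.23 in wild-type cells, from 3.86 to 6.88 CPM. Col11a2 rose by 1.07 ± 0.26 in wild-type and 1.06 ± 0.25 in knock-out cells, to under 3 CPM in both. In knock-out cells 14 chains were called in this step, 5 higher and 9 lower, beside 29.1% of genes (14.7% higher and 14.4% lower).

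Between days 3 and 4 in wild-type cells 12 chains rose and 5 fell, beside 45.5% of genes called (22.4% higher and 23.1% lower). The rising chains were Col4a1, Col4a2, Col4a5 and Col8a2 among network chains, Col2a1 and Col11a2 among fibrillar chains, Col9a3 and Col20a1 among FACITs, Col7a1, and the transmembrane chains Col13a1, Col17a1 and Col23a1. In knock-out cells 3 chains were called, Col9a1 higher and Col5a3 and Col6a4 lower, beside 11.6% of genes (5.76% higher and 5.83% lower), and 11 had an unadjusted p under 0.05. The count of 3 called chains became 12 with only the groups compared and 6 with DESeq2's Wald test. Of the 12 chains that rose in wild-type cells 11, all but Col11a2, were lower in knock-out than in wild-type cells at day 4, beside 27.6% of all genes. Both comparisons use the wild-type day 4 libraries, so nothing is read from this count.

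Col4a1, a chain of basement membrane, had the highest level of the 12 rising chains at day 4. It was at 64.8, 68.7 and 65.6 CPM at day 3 and at 258, 195 and 187 CPM at day 4 in wild-type libraries, a log2 fold change of 1.68 ± 0.24 (edgeR adjusted p = 1.99e-05). Knock-out libraries stood at 62.9, 50.5 and 55.5 CPM at day 3 and at 53.9, 44.3 and 57.4 CPM at day 4, so that every wild-type library of day 4 lay above every knock-out library. The difference at day 4 was -2.04 ± 0.25 on the log2 scale (adjusted p = 1.73e-06). Its partner Col4a2, whose start lies inside the 78 shared capitals above, went from 19.3, 21.0 and 19.2 to 78.4, 62.3 and 60.7 CPM in wild-type cells, a rise of 1.76 ± 0.28. In the knock-out Col4a2 was at 13.5, 11.5 and 13.2 CPM at day 4, a difference of -2.40 ± 0.29 (adjusted p = 1.60e-06). Wild-type replicate 1 was the highest library for both chains.

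Both genes lie on chromosome 8, and the 574 chromosome 8 genes with at least 5 CPM had a median log2 fold change of knock-out against wild-type of 0.27, 0.26, 0.23 and 0.25 at days 0, 2, 3 and 4. Genes at that level on most other autosomes, with the sex chromosomes left out, had 0.03, 0.04, 0.01 and 0.02. Neither chain was called between genotypes at day 0, 2 or 3, with log2 fold changes of -0.01, -0.55 and -0.24 for Col4a1 and 0.01, -0.32 and -0.31 for Col4a2. With only the groups compared, Col4a1 was called lower at days 2 and 3 (edgeR adjusted p = 0.00783 and 0.0199) and Col4a2 at day 3 (0.0236). Per exon length the wild-type means of Col4a1 and Col4a2 were 12.3 and 10.2 CPM per kb at day 0, 8.81 and 3.35 at day 2, 8.89 and 3.00 at day 3, and 28.6 and 10.1 at day 4. The chains were thus closest at day 0, when fibroblast markers were also at their highest, whose part was not tested.

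The X-linked type IV pair moved apart. Col4a5 fell from 14.1 CPM at day 0 to 7.96 at day 2 in wild-type cells and stood at 8.66, 10.5 and 9.69 CPM at day 4, against 4.54, 4.62 and 4.28 CPM in the knock-out, a difference of -1.10 ± 0.29 (edgeR adjusted p = 0.00297). Its changes over time were less certain: the fall to day 2, -0.83 ± 0.27, was not called without wild-type day 0 replicate 2 (-0.53, adjusted p = 0.1002), and the rise to day 4, 0.76 ± 0.28, was not called without wild-type day 3 replicate 1 or 3 or day 4 replicate 2 or 3 (adjusted p 0.0639 to 0.107). Col4a6, which starts on the other strand 1343 bases away, rose from 0.456 CPM at day 0 to 4.89, 2.64 and 3.73 CPM at day 2 in wild-type cells, or 3.02 ± 0.33 on the log2 scale. The knock-out libraries held 0.753, 0.816 and 0.499 CPM of Col4a6 at day 2, and the differences at days 2, 3 and 4 were -2.44 ± 0.32, -1.63 ± 0.28 and -0.89 ± 0.26. Col4a4 stayed at or under 0.505 CPM in every group mean, and Col4a3 had 9 counts in all 24 libraries and was not tested.

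Of the fibrillar chains, Col2a1, the type II chain known from cartilage and notochord, was the one that rose steeply. It was at 18.0, 21.7 and 16.2 CPM at day 3 and at 97.3, 112 and 118 CPM at day 4 in wild-type libraries, a log2 fold change of 2.55 ± 0.15 (edgeR adjusted p = 1.59e-11). Knock-out libraries were at 23.7, 17.1 and 27.2 CPM at day 4, a difference of -2.27 ± 0.15 (adjusted p = 2.98e-11), with no overlap. Col2a1 was already lower in the knock-out at day 2 by -0.51 ± 0.16 (adjusted p = 0.0202), a call lost without wild-type replicate 1 or 3 or knock-out replicate 1 or 3 of day 2 (adjusted p 0.0589 to 0.0696), and not lower at day 3 (0.06 ± 0.15). Cartilage markers (Sox9, Acan, Matn1, Matn4) summed to 7.41 to 7.92 CPM and notochord markers (T, Noto, Shh, Chrd, Nog) to 82.6 to 155 CPM in the wild-type day 4 libraries, against 3.05 to 4.67 and 26.5 to 61.3 CPM in the knock-out. The notochord sum was higher in wild-type cells at day 3, at 168 to 320 CPM, when Col2a1 was still low. Its members did not move alike. From day 3 to 4 in wild-type cells 3 of the 5 rose and 1 fell, beside 22.4% and 23.1% of all genes. At day 4 the sum was 82.6, 142 and 155 CPM in wild-type replicates 1, 2 and 3, the order of Col2a1. The part of these markers in the result was not tested.

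Col11a1 and Col27a1 were lower in the knock-out at several days. Col11a1 differed by -1.17 ± 0.27, -1.41 ± 0.24 and -1.08 ± 0.23 at days 2, 3 and 4 (edgeR adjusted p = 0.00186, 4.35e-05 and 0.000329). At day 4 its wild-type libraries were at 8.21, 7.17 and 6.87 CPM and its knock-out libraries at 3.45, 2.95 and 4.09 CPM. Col27a1 differed by -0.68 ± 0.15 at day 3 (adjusted p = 0.000736) and by -0.45 ± 0.16 at day 4 (adjusted p = 0.0182), the latter lost without wild-type replicate 2 or knock-out replicate 1 or 2 of day 4 (adjusted p 0.0602, 0.0860 and 0.0616). Col5a3 was the fibrillar chain that was higher in the knock-out at day 3, by 1.73 ± 0.34, at 1.44, 1.89 and 1.36 CPM against 0.377, 0.426 and 0.581 CPM.

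The type IX chains, FACITs that coat type II fibrils, did not move as one. Col9a3 rose in wild-type cells from 2.54 CPM at day 0 to 10.9 at day 2, and from 6.04, 7.46 and 6.75 CPM at day 3 to 47.7, 37.5 and 35.5 CPM at day 4, a log2 fold change of 2.58 ± 0.16 (edgeR adjusted p = 4.64e-12). In the knock-out it was at 8.12, 8.33 and 9.29 CPM at day 4, a difference of -2.23 ± 0.15 (adjusted p = 1.24e-11). Its exons share 6.07% of their bases with Tcfl5, so a small part of its reads could belong to either gene. Col9a2 and Col9a3 were both called lower from day 2 to 3 in wild-type cells, Col9a2 by 1.37 ± 0.21. From day 3 to 4 Col9a2 went the other way from Col9a3 and fell by 1.04 ± 0.25, down to 1.33, 1.35 and 2.09 CPM. In the knock-out Col9a2 was at 5.90, 5.43 and 5.21 CPM at day 4, a difference of 1.79 ± 0.24 (adjusted p = 6.62e-07). Col9a1 was scarce, with 108 counts over the wild-type and 1 count over the knock-out libraries at day 3, and 159 against 28 counts at day 4.

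All 4 transmembrane chains were lower in the knock-out at day 4, beside 27.6% of all genes, and of the 18 lower chains Col23a1 and Col13a1 had the largest fold differences. Col23a1 (ENSMUSG00000063564, chr11:51289920-51583918) was at 7.26, 3.73 and 2.28 CPM at day 3 and at 108, 61.0 and 42.9 CPM at day 4 in wild-type libraries, a log2 fold change of 4.00 ± 0.34 (edgeR adjusted p = 2.28e-08). In the knock-out it stayed at 1.32, 1.48 and 1.22 CPM at day 4, a difference of -5.72 ± 0.40 (adjusted p = 6.51e-10). At day 3 the difference was -2.64 ± 0.48, and at days 0 and 2 none was called. The spread between wild-type libraries was wide at both days, with replicate 1 highest.

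The definitive endoderm and mesoderm marker sums had wild-type replicate 1 highest at days 3 and 4 too, the order of Col23a1. The definitive endoderm sum was 291, 191 and 137 CPM in wild-type replicates 1, 2 and 3 of day 3 and 1058, 892 and 824 CPM at day 4. The mesoderm sum (Kdr, Hand1, Mesp1, Tbx6, Pdgfra, Tbx20) was 47.9, 20.2 and 13.9 CPM at day 3 and 235, 140 and 124 CPM at day 4. In the knock-out at day 4 the mesoderm sum was 4.14 to 8.61 CPM, with 2 or 3 of 6 markers at 0 in a library, while all 6 endoderm markers had counts. All 6 endoderm and all 6 mesoderm markers were lower in the knock-out at day 4, as were 7 of 8 parietal endoderm markers (laminins, Nid1 and others), beside 27.6% of all genes. The parietal endoderm sum was 660 to 714 CPM in wild-type and 393 to 486 CPM in knock-out libraries. At day 4 the wild-type libraries of Col4a1, Col4a2, Col9a3, Col13a1 and Col23a1 had the same highest library, replicate 1, whereas for Col2a1 replicate 1 was the lowest. The part of these cell types in the collagen differences was not tested.

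Col13a1, at lower levels, was also higher in wild-type than in knock-out cells at days 3 and 4. From day 0 to 2 it fell in both genotypes, from 4.81 to 1.93 CPM in wild-type and from 5.39 to 2.10 CPM in knock-out cells. It was at 5.80, 3.36 and 2.73 CPM at day 3 and at 11.4, 9.69 and 9.60 CPM at day 4 in wild-type libraries, and at 0.423, 0.690 and 0.702 and then 0.907, 0.619 and 1.02 CPM in knock-out libraries. The differences were -2.71 ± 0.31 at day 3 (edgeR adjusted p = 1.90e-07) and -3.58 ± 0.28 at day 4 (adjusted p = 1.49e-10). Its rise from day 2 to 3 in wild-type cells, 1.03 ± 0.27, was not called without day 3 replicate 1 (0.65, adjusted p = 0.0567). Col17a1, a hemidesmosome collagen, was higher in the knock-out at days 2 and 3 and lower at day 4, by 0.94 ± 0.33, 1.97 ± 0.56 and -1.77 ± 0.47, with no group mean above 3.38 CPM.

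**Figure D4:**
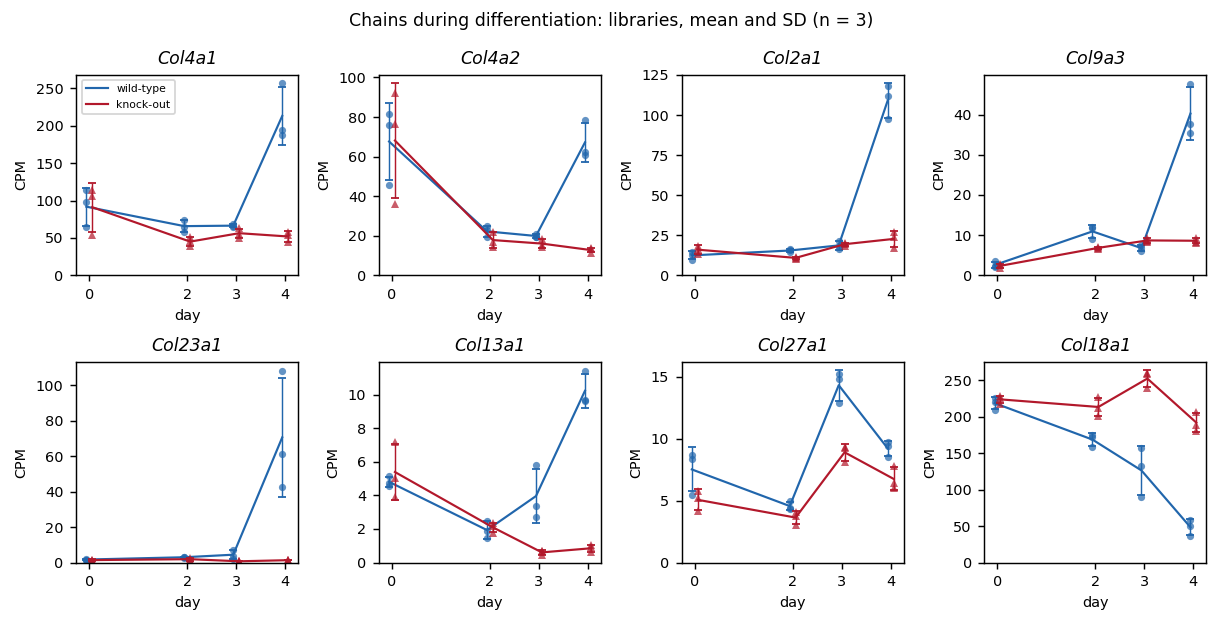
CPM of 8 chains against day, with 1 point per library, the group mean as a line and the SD as a bar (n = 3; wild-type in blue circles, knock-out in red triangles). Wild-type libraries of Col4a1, Col4a2, Col2a1, Col9a3, Col23a1 and Col13a1 lie above every knock-out library at day 4, and those of Col18a1 lie below.

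Col18a1, the multiplexin whose end fragment is endostatin, was one of the 2 chains that were higher in the knock-out at day 4. In wild-type cells it went from 210, 220 and 226 CPM at day 0 to 175, 158 and 172 at day 2, 89.6, 133 and 156 at day 3 and 36.6, 50.7 and 58.0 CPM at day 4. In the knock-out it stayed at 218, 225 and 228, then 211, 227 and 201, then 258, 259 and 239, and then 207, 188 and 181 CPM. The last wild-type step was a fall of 1.38 ± 0.16 on the log2 scale (edgeR adjusted p = 1.07e-06), and the genotypes differed by 1.00 ± 0.15 at day 3 (adjusted p = 3.69e-05) and 1.98 ± 0.16 at day 4 (adjusted p = 6.38e-09), without overlap.

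The earlier wild-type falls of Col18a1 were small, -0.37 ± 0.15 and -0.42 ± 0.15. The first was lost without any of 5 libraries (day 0 replicates 2 and 3 and the 3 of day 2, adjusted p 0.0572 to 0.112), and the second without day 2 replicate 1 or 3 or day 3 replicate 1 or 2 (adjusted p 0.0523 to 0.165). Both were lost without the filter on low counts (adjusted p 0.0551 and 0.0560), and the second also with only the groups compared (0.157). Wild-type day 3 replicate 1, low for Col18a1, was the library that was high for Col23a1 and Col13a1. The stem cell marker sum was 188, 283 and 308 CPM in the wild-type and 743, 706 and 750 CPM in the knock-out libraries at day 4, so that both were lower in wild-type cells at that day. At day 3 the sum was higher in wild-type (779 to 847 CPM) than in knock-out libraries (690 to 701 CPM), while Col18a1 was lower in wild-type. Of the 5 tested members, however, 2 were higher and 1 lower in the knock-out at day 3, beside 20.8% and 20.5% of all genes. In wild-type cells the sum was 376 to 419 CPM at day 2, below its day 3 level, while Col18a1 fell from day 2 to 3. In that step 2 members rose and 2 fell, beside 21.4% and 21.1% of all genes. The part of these cells in the Col18a1 difference was not tested.

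Across all chains, the genotypes differed at day 2 in 9 of 41 chains, 2 higher and 7 lower in the knock-out, beside 32.0% of genes called (16.2% higher and 15.7% lower). That count became 4 without wild-type replicate 1 and 15 with only the groups compared. Col3a1 was among the higher, at 53.9, 40.8 and 23.2 CPM against 21.3, 17.1 and 17.7 CPM, a log2 fold change of 1.07 ± 0.36 (edgeR adjusted p = 0.0341). The call was lost without any wild-type replicate and without knock-out replicate 1 or 2 (adjusted p 0.0598 to 0.168), and the fibroblast sum of those knock-out libraries, 87.1, 70.2 and 61.8 CPM, was in the same order. Its part in this difference was not tested. Col9a3 was lower at day 2 by -0.68 ± 0.16, at 6.83, 7.03 and 6.59 against 11.7, 9.12 and 11.9 CPM (adjusted p = 0.00201).

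At day 3, 18 of 41 chains differed, 6 higher and 12 lower in the knock-out, beside 41.2% of genes called, 20.8% higher and 20.5% lower. At day 4, 20 differed, 2 higher (Col9a2 and Col18a1) and 18 lower, beside 54.0% of genes called, 26.3% higher and 27.6% lower. The median log2 fold change at day 4 was -0.50 over the tested chains and -0.01 over all genes. By class, 4 of 4 transmembrane, 5 of 7 network, 4 of 8 FACIT, 3 of 11 fibrillar and 2 of 9 beaded filament, anchoring and other chains were lower at day 4. No type I, III, V or VI chain was called at day 4 by edgeR fitted to all groups, and none had an unadjusted p under 0.05 there. DESeq2's Wald test called Col1a1 and Col6a3 (1.43, adjusted p = 0.0158) higher. With only the groups compared, edgeR called Col1a1 and Col6a3 higher and Col1a2 lower. Among the chains called at day 3, Col16a1 was lower by -1.08 ± 0.34 (2.67, 2.07 and 1.18 against 4.72, 4.63 and 3.26 CPM), a call lost without wild-type replicate 1 or knock-out replicate 3 (adjusted p 0.0646 and 0.0796).

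Col7a1, the anchoring fibril chain, changed sides. It was higher in the knock-out at day 3, at 9.78, 10.8 and 10.4 against 6.42, 7.56 and 6.08 CPM (0.63 ± 0.20, edgeR adjusted p = 0.0135), and lower at day 4, at 7.44, 7.43 and 9.34 against 12.3, 9.55 and 12.4 CPM (-0.50 ± 0.20, adjusted p = 0.0333). The first call was lost without wild-type replicate 3 of day 3 (adjusted p = 0.0541) and the second without wild-type replicate 1 or 3 or knock-out replicate 1 or 2 of day 4 (adjusted p 0.101 to 0.107).

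**Figure D5:**
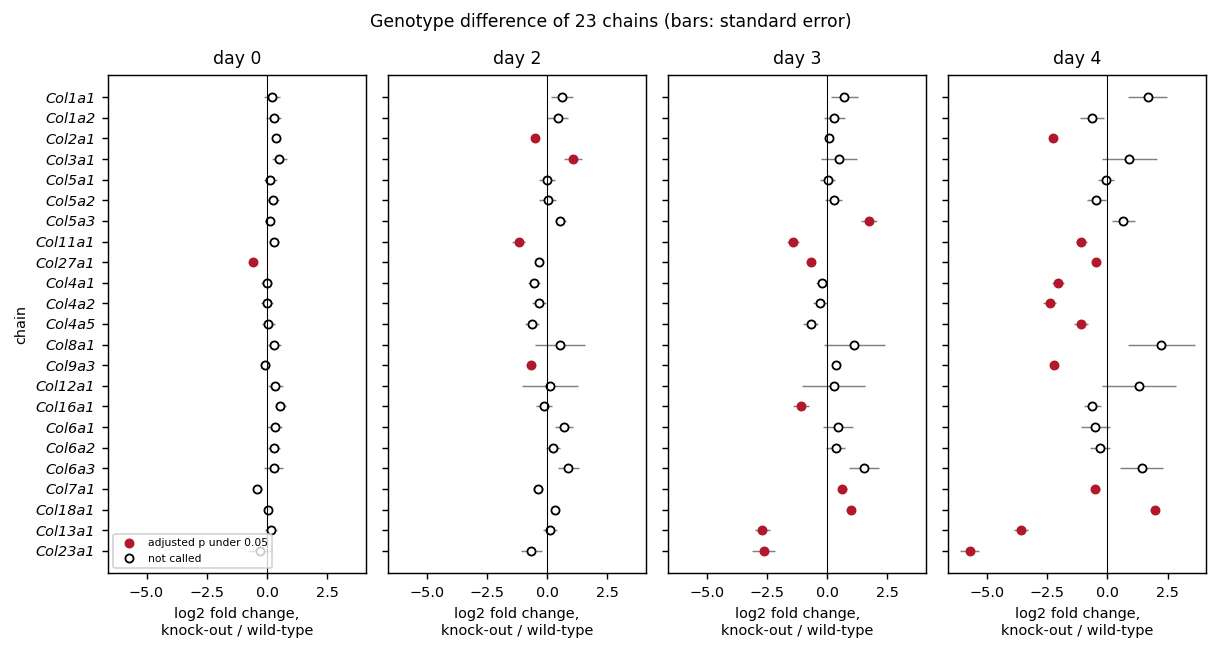
Log2 fold change of knock-out against wild-type at days 0, 2, 3 and 4 for the 23 chains with at least 10 CPM in a group mean, with the standard error as a bar; filled points have an edgeR adjusted p under 0.05. Col27a1 is the only filled point at day 0, and at day 4 all filled points lie left of 0 except Col18a1.

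A change that differs between genotypes was tested as an interaction. From day 3 to 4 the knock-out change differed from the wild-type change in 12 of 41 chains, 3 higher and 9 lower, beside 23.8% of genes (12.6% higher and 11.2% lower). The differences were -2.59 ± 0.22 for Col9a3, -2.33 ± 0.21 for Col2a1, -2.09 ± 0.41 for Col4a2 and -1.80 ± 0.34 for Col4a1 on the log2 scale (edgeR adjusted p = 6.91e-09, 6.06e-08, 0.00107 and 0.000891). For Col23a1 it was -3.08 ± 0.72 (adjusted p = 0.00389, and 0.0721 with only the groups compared). From day 0 to 2, 5 chains differed, 1 higher and 4 lower, beside 7.34% of genes (4.27% higher and 3.07% lower). From day 2 to 3, 5 differed, 4 higher and 1 lower, beside 10.9% of genes (6.61% higher and 4.33% lower). Col11a1 fell further in the knock-out from day 0 to 2 (-1.46 ± 0.34, adjusted p = 0.00913).

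The remaining 18 tested chains stayed under 10 CPM in every group mean, from Col4a4 at 0.505 CPM to Col8a2 at 8.58 CPM at their highest. Col8a2, the partner of Col8a1, had its peak not at day 0 but at day 4, at 10.5, 7.26 and 8.01 CPM in wild-type and 2.31, 2.57 and 2.04 CPM in knock-out libraries (-1.89 ± 0.19, edgeR adjusted p = 9.04e-09). Col14a1, a FACIT of tendon and skin, was at 4.09 CPM in wild-type and 1.29 CPM in knock-out cells at day 4 (-1.66 ± 0.28). Of 3 chains not tested, Col10a1, the chain of hypertrophic cartilage, was listed at 0 in all 24 libraries, Col4a3 had 9 counts, and Col19a1 had 127 counts, of which 21 were in wild-type and 0 in knock-out libraries at day 3. All exon bases of Col10a1 lie within the span of Nt5dc1, so its 0 may not be absence of RNA. Of the exon bases of the other chains, 4981 of 9967 in Col4a3, 33.5% of Col18a1 (within Slc19a1), 23.7% of Col4a1 and 16.6% of Col4a2 lie within the span of another gene, and under 10% of every other chain. Whether this lowered their counts was not tested.

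Genes that make, process, bind or degrade collagens were examined as 4 lists. The biosynthesis list holds 23 enzymes, chaperones and secretion factors, of which 22 were tested. In wild-type cells from day 0 to 2, 16 fell and 2 rose, beside 31.8% of all genes lower and 32.0% higher. Crtap, a part of the prolyl 3-hydroxylation complex, fell by 1.47 ± 0.09 to 20.3 CPM and P4ha2, a prolyl 4-hydroxylase subunit, by 1.66 ± 0.12 to 10.0 CPM. Of 13 processing and crosslinking genes 11 fell and 1 rose, with Pcolce, an enhancer of procollagen cleavage, down by 3.93 ± 0.14 from 134 to 8.77 CPM. Of 9 tested receptors 6 fell and 1 rose: the integrin chain Itga11 fell by 4.62 ± 0.26, and Ddr1, a collagen-binding kinase, rose by 1.41 ± 0.09 to 114 CPM. Of 5 tested degradation genes 4 fell, among them the collagenase Mmp13, by 3.00 ± 0.41. The median log2 fold changes of the tested genes of these 4 lists were -0.82, -2.26, -0.80 and -1.40, against 0.01 over all genes.

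From day 3 to 4 in wild-type cells 10 of 22 biosynthesis genes rose and 1 fell, beside 22.4% of all genes higher and 23.1% lower. Creb3l1, a transcription factor known to act on collagen genes, rose by 2.24 ± 0.24 from 12.1 to 57.4 CPM, and P3h2, a prolyl 3-hydroxylase that acts on type IV, by 1.90 ± 0.24. In processing, 2 rose and 4 fell, with Loxl2, a lysyl oxidase that crosslinks type IV, up by 2.35 ± 0.26 and Pcolce2 down by 1.27 ± 0.10. No receptor rose and 3 fell, and of the degradation genes 2 rose and none fell. The list medians were 0.16, -0.37, -1.20 and -0.61, against -0.01 over all genes.

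At day 4 the knock-out had 12 of 22 biosynthesis genes lower and 5 higher than wild-type, beside 27.6% of all genes lower and 26.3% higher. P3h2 was lower by -3.01 ± 0.27, at 1.45 against 11.7 CPM, and Fkbp10, a collagen chaperone, was higher by 1.66 ± 0.13, at 22.5 against 7.11 CPM (edgeR adjusted p = 1.02e-09 and 1.43e-10). Of the processing genes 4 were higher and 4 lower, with Loxl2 at 2.29 against 20.5 CPM (-3.16 ± 0.28) and Pcolce2 higher by 1.44 ± 0.10. Of the receptors 3 were higher and none lower, among them Ddr1 (0.93 ± 0.09) and the endocytic receptor Mrc2 (1.56 ± 0.29). Mmp14, a membrane-bound collagenase, was lower by -1.34 ± 0.22, at 69.1 against 175 CPM. The list medians were -0.39, 0.38, 0.28 and -0.32, against -0.01 over all genes.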

How the data were processed

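Sample titles and genotype and time labels gave the groups. The authors deposited a table of raw read counts by gene. Reads were processed with HISAT2 and Trimmomatic on GRCm38.p6, per the submitters' processing notes; no version, counter, annotation or strand setting is given in the sources used here. Exon and gene span overlaps came from GENCODE M21.

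The collagen members and all lists were chosen with earlier results of these data known. Blank gene names of 2090 rows were filled from a table of identifiers, which added no chain. In R 4.3.3, edgeR 4.0.16 (quasi-likelihood test, robust) was fitted once to 24 libraries in 8 groups after its filter on low counts, with TMM scaling; there were 13 comparisons. SE is the log2 fold change over the root of F. Per-length levels used GENCODE exon lengths. Chains described one by one reach 10 CPM in a group mean and are called between genotypes or in a wild-type step (23 chains); others named are under 10 CPM or not tested. Pathway examples have the lowest adjusted p of their list. Replicates differed by more than counting noise. The test was tried on simulated counts. Alternatives were DESeq2 size factors, total counts, no filter, a replicate block, only the groups compared, each library left out, the fibroblast sum as covariate at day 0, and DESeq2 1.42.0. A planned count of Gly-X-Y repeats was not done. Promoters are from RefSeq.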

Additional observations from a re-analysis of the deposited data

Results flagged for a closer look

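Among the 23 chains with at least 10 CPM in a group mean, 12 differences in change between the 2 genotypes were called by the interaction term of edgeR's quasi-likelihood test; the other 10 of the 22 called over 41 tested chains were in chains under 10 CPM. The 12 are given here as the knock-out change minus the wild-type change on the log2 scale. From day 0 to 2 the values were -0.87 for Col2a1 (adjusted p = 0.0206) and -1.46 for Col11a1; the Col2a1 value was not called without any one of 5 libraries (wild-type day 0 replicate 1, wild-type day 2 replicate 1, knock-out day 0 replicates 1 and 2, knock-out day 2 replicate 1; adjusted p 0.0508 to 0.0582) or without the filter on low counts (0.0554). From day 2 to 3 they were 1.04 for Col9a3, 1.01 for Col7a1 and -2.82 for Col13a1; Col7a1 was not called without wild-type day 2 replicate 1, wild-type day 3 replicate 1 or knock-out day 3 replicate 2 (adjusted p 0.0680, 0.0526 and 0.0503). From day 3 to 4 they were -2.33 for Col2a1, -1.80 for Col4a1, -2.09 for Col4a2, -2.59 for Col9a3, -1.13 for Col7a1, 0.99 for Col18a1 and -3.08 for Col23a1. These 3 steps share libraries at days 2 and 3.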

How the results depend on the processing

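Of 105 called fold changes of the 23 chains described one by one, 105 were also called with DESeq2's size factors, with total counts, with DESeq2's Wald test and with the replicate block, and 99 each without the filter on low counts and with only the groups compared; leaving out 1 library kept 653 of 702. Of 194 fold changes not called, 19 were called with DESeq2's Wald test and 1 each with DESeq2's size factors and with total counts. With only the groups compared, 44 of 179 not called before were called. The counts of called chains moved by over 1.5 times in 5 comparisons. The share of all genes called in each alternative fit was not taken. Knock-out against wild-type gave 5 chains at day 0, 3 with only the groups compared and 2 to 12 with 1 library left out, and 9 chains at day 2, 15 with only the groups compared and 4 to 8 with 1 library left out. The knock-out step from day 3 to 4 gave 3 chains, 12 with only the groups compared and 6 with DESeq2. The genotype difference of the step from day 0 to 2 gave 5 chains and 2 to 6 with 1 library left out, and that from day 2 to 3 gave 5 chains, 8 with only the groups compared, 8 with DESeq2 and 4 to 8 with 1 library left out. Where 1 library was left out, its group had 2 libraries and shared the spread of the others. With the fibroblast sum as covariate at day 0, Col4a2 in knock-out against wild-type was at -0.23 (edgeR adjusted p = 0.0302), against 0.01 without it; the cause was not tested.

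Replicate numbers are shared between groups, but in no comparison did all 3 same-numbered pairs have deviations that correlate above 0.1, so they were not treated as pairs. With the replicate number as a block the counts of knock-out against wild-type were 5, 9, 19 and 20 chains at days 0, 2, 3 and 4, and 5 further fold changes of the described chains were called. Chains under 1 CPM rest on few counts per library, and calls on them are the least certain.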

Other observations

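Genes of collagen making were also compared between genotypes before day 4. Of 22 tested biosynthesis genes 6 were higher and 1 lower in the knock-out at day 0, 6 and 1 at day 2, and 4 and 7 at day 3. Of 13 processing and crosslinking genes 1 was higher and 1 lower at day 0, 3 and 4 at day 2, and 2 and 3 at day 3. Of 9 tested receptors 2 were lower at day 2, and 2 were higher and 2 lower at day 3. All genes were called at 21.1%, 32.0% and 41.2% on these days, and at 54.0% at day 4.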
